A study of Homo sapiens with 8 samples.

Results

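The genes described here encode the enzymes that make cholesterol and fatty acids, together with the sterol regulatory element-binding proteins (SREBPs) and the proteins that control them. They were found by gene symbol from a list of 31 names, of which 30 have a row among the 18508 genes of the deposited table; FADS1 was not analysed here. Gene expression was measured with Human Clariom S arrays in ASC52telo cells, adipose-derived stem cells (ADSCs) of 1 human line immortalized with hTERT, so the replicates are cultures of the same line. In every group the cells were deprived of serum for 24 h before treatment. The SAHA group, 3 arrays, then received 1000 nM SAHA (vorinostat), an inhibitor of histone deacetylases, for 72 h. The EtOH group, 2 arrays, received the ethanol vehicle, and the control group, 3 arrays, was left untreated; fresh medium was added for 24 h before the cells were collected. Following the methods of the study, the EtOH and untreated arrays were combined as 5 control arrays. The values are log2 expression with an unknown offset, and the array medians lay between 0.26 and 0.33. A level is therefore compared between arrays for the same gene and not between genes. Arrays with the same replicate number had been centred together in each gene before deposit. A level on 1 array thus also depends on the other arrays of its number, and overlap between groups is read on these centred values. In replicate 2, which has 1 untreated and 1 SAHA array, the 2 values lie equally far from the gene's mean on opposite sides.

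Cells build cholesterol from acetyl-CoA through mevalonate, farnesyl diphosphate, squalene and lanosterol. The SREBP transcription factors are held in the endoplasmic reticulum as precursors. When sterols are scarce, SCAP escorts them to the Golgi, where proteases release the active part that switches on the genes of this pathway; when sterols are plentiful, the INSIG proteins hold SCAP back. In stem cells of adipose tissue the same genes supply membranes for growth and lipid for fat storage. On the log2 scale, the 7 listed mesenchymal stem cell surface genes lay between 3.77 and 8.63. The 7 listed adipocyte markers, ADIPOQ, FABP4 and PLIN1 among them, lay between -0.44 and 0.35. These are signals of different probes on a scale with an unknown offset, so they describe the arrays and do not rank one gene against another. Between the groups, the mean of the 7 adipocyte markers was between -0.080 and 0.050 on the SAHA arrays and between -0.097 and 0.013 on the control arrays, and 0 of the 7 were called. The 7 mesenchymal stem cell surface genes also held 0 calls, but 6 had a log2 fold change above 0, with a median of 0.29. In 3 of them, all higher, the unadjusted limma p was under 0.05, where 15.4% of all genes passed in either direction. Of the 4 endothelial markers 0 were called, and VWF had the largest estimate, a log2 fold change of -0.48 (limma adjusted p = 0.094).

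In ADSCs treated with SAHA, the estimated changes in the sterol and SREBP pathway were mostly small. A gene was called where its fold reached 1.5 and its adjusted p was under 0.05. In limma 0 of the 30 genes were called, against 0.735% of all genes tested. At an unadjusted p under 0.05 there were 7 of the 30, 5 higher and 2 lower, where 15.4% of all genes passed, and 3 with the replicate number as a block, where 8.72% passed. An unpaired t-test, which the methods name for general statistics beside limma for the arrays, called 0 of the 30 and 0.0919% of all genes after the same adjustment. MSMO1 came closest to a call and was the 1 gene whose estimate exceeded 1.5-fold. The median log2 fold change was 0.020 over the 30 genes and -0.034 over all genes, with 17 of the 30 above 0 and 13 below, where 57.6% of all genes were below 0. In 16 genes the log2 fold change was smaller than 0.2 in size. The 95% interval lay inside a 1.5-fold change in either direction for 21 of the 30 genes, and reached a 2-fold change for 1. With the replicate number as a block these counts were 16 and 2. Differences between the replicate numbers had been removed before deposit, so the intervals without the block can be too narrow. A missed threshold does not show that a gene stayed the same, and the intervals give the change that these arrays leave possible for each gene. They are not adjusted for the number of genes.

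**Figure D1:**
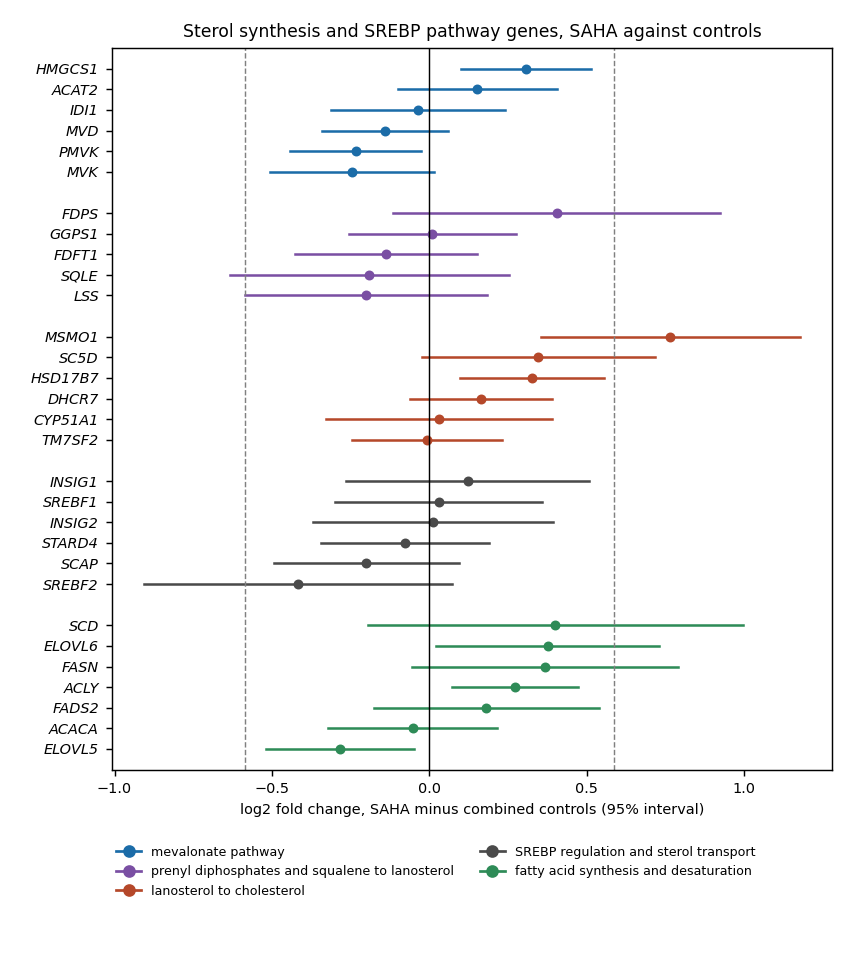
Log2 fold change of 30 sterol synthesis and SREBP pathway genes, SAHA group minus combined controls. Points are limma estimates, lines are 95% intervals, colors give the role in the pathway and dashed lines mark a 1.5-fold change; MSMO1 lies farthest to the right at 0.77 and SREBF2 farthest to the left at -0.42.

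The 6 genes of the mevalonate pathway had estimates in both directions, 2 above 0 and 4 below, and 0 were called. HMGCS1, which encodes the cytosolic synthase that forms HMG-CoA, was at 0.52, 0.49 and 0.71 on the arrays of SAHA replicates 1, 2 and 3. It was at 0.32, 0.28 and 0.30 in untreated replicates 1, 2 and 3, and at 0.30 and 0.13 in EtOH replicates 1 and 3. The 3 SAHA arrays thus lay above all 5 control arrays, a log2 fold change of 0.31 (SE, the standard error, 0.094; limma, adjusted p = 0.16). EtOH replicate 3 stood apart below the other controls, and without it the log2 fold change was 0.27. MVK and PMVK, the kinases that phosphorylate mevalonate in succession, leaned the other way. MVK was at -0.12, 0.022 and 0.19 with SAHA, at 0.53, 0.34 and 0.18 untreated and at 0.14 and 0.18 with EtOH, so the groups overlapped (log2 fold change -0.25, SE 0.12, adjusted p = 0.35). PMVK was at 0.34, 0.29 and 0.10 with SAHA against 0.40 to 0.58 in the controls, without overlap (log2 fold change -0.23, SE 0.094, adjusted p = 0.27). ACAT2, the thiolase of the first step, MVD, the decarboxylase, and IDI1, the isomerase of isopentenyl diphosphate, had log2 fold changes of 0.15, -0.14 and -0.035 with overlapping groups. 

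Among the 5 genes from prenyl diphosphates to lanosterol, 2 were above 0 and 3 below, and 0 passed at an unadjusted p under 0.05. FDPS, which encodes farnesyl diphosphate synthase, had a log2 fold change of 0.40 (SE 0.23, limma adjusted p = 0.45). Its SAHA arrays were at 1.93, 1.02 and 1.45, its untreated arrays at 1.27, 1.41 and 1.01, and its EtOH arrays at 0.44 and 1.18. The groups overlapped, and the arrays of replicate 1 held both the highest SAHA value and the lowest control value. Arrays of replicate 1 were centred together, so a high value on 1 of them lowers the others. FDPS, IDI1, HSD17B7, CYP51A1 and SCD have pseudogene copies in RefSeq, and how far the probes tell them apart is not given in the sources used here. SQLE, which encodes the rate-limiting squalene epoxidase, was at 0.48, 0.60 and 0.48 with SAHA. Its control arrays ran from 0.27 to 1.17 and enclosed them (log2 fold change -0.19, SE 0.20). LSS, which encodes the cyclase that forms lanosterol, had a log2 fold change of -0.20 (SE 0.17), and the 2 EtOH arrays decided its direction, as the comparison with untreated cells below shows. FDFT1, the squalene synthase gene, was at -0.14 and GGPS1, the gene of geranylgeranyl diphosphate synthase, at 0.0089 on the log2 fold change scale.

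Between lanosterol and cholesterol, 5 of 6 genes had a log2 fold change above 0, with a median of 0.25, and 2 of them, MSMO1 and HSD17B7, passed at an unadjusted p under 0.05. MSMO1 encodes the C4-methyl sterol oxidase, which starts the removal of the methyl groups at carbon 4. It was at 4.87, 4.76 and 4.23 on the SAHA arrays. The untreated arrays were at 3.57, 3.52 and 4.11, and the EtOH arrays at 3.99 and 4.09. All SAHA arrays thus lay above all control arrays, although SAHA replicate 3 exceeded the highest control by a narrow margin. The log2 fold change was 0.77, a fold of 1.70 (SE 0.19, 95% interval 0.35 to 1.18, unadjusted p = 0.0018, limma adjusted p = 0.090), which missed the threshold. It passed with array weights, at an adjusted p of 0.043; the adjusted p over 18 alternatives ran from 0.043 to 0.33. Over them the log2 fold change stayed between 0.58 and 0.96. HSD17B7 encodes the 3-keto reductase that completes each round of the same demethylation. It was at 0.17, 0.34 and 0.50 with SAHA and between -0.074 and 0.12 in the controls, again without overlap, with a log2 fold change of 0.33 (SE 0.10, adjusted p = 0.17).

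SC5D, the lathosterol oxidase gene, had a log2 fold change of 0.35 (SE 0.17, limma adjusted p = 0.36) and overlapping groups. Its untreated replicate 1 stood apart at -0.22, against 0.22 to 0.39 on the other control arrays, and without it the log2 fold change was 0.25. DHCR7, which encodes the last reductase of the pathway, was at 0.94, 1.02 and 0.89 with SAHA and between 0.67 and 0.94 in the controls (log2 fold change 0.17, SE 0.10). CYP51A1, the lanosterol demethylase gene, and TM7SF2, the gene of a sterol reductase, were at 0.030 and -0.0079 on the log2 fold change scale.

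The promoter of MSMO1 is shown because this gene had the largest estimate of the 30. The sequence is from RefSeq, build GRCh38.p14, and runs over the 250 bases before the annotated start of the gene. Capitals mark the NF-Y box CCAAT and the Sp1 box GGGCGG, each on either strand, which are known as the co-factor boxes beside SREBP sites.
MSMO1, chr4:165327419-165327668, plus strand: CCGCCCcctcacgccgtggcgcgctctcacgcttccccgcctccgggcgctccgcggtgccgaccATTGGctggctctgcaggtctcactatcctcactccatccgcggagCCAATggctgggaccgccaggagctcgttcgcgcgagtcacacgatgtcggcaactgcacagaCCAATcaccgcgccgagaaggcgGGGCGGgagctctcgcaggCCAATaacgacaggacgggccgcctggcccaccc
It holds 4 CCAAT and 2 GGGCGG boxes, and none of the 3 SREBP motifs searched: the sterol regulatory element, whose letters stand in capitals in the SREBF2 promoter below, the looser core TCACNCCAC, which overlaps it, and the E-box form ATCACGTGA. RefSeq promoters were found for 26 of the 30 genes, 38 promoters in all with alternative starts; ACAT2, FDFT1, SQLE and FASN have none in the table used. CCAAT was present in 60.5% of these promoters and in 32% of all 35116 promoters, and GGGCGG in 86.8% against 42.6%. These are counts of letters in a window and not of bound sites.

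The regulators of the pathway showed no call and no common direction, with 3 of 6 genes above 0 and a median log2 fold change of -0.034. SREBF2, which encodes the SREBP that chiefly drives sterol synthesis, had the lowest estimate of the 30 genes. It was at 0.91, 1.32 and 0.96 on the SAHA arrays, at 0.96, 1.33 and 1.67 on the untreated arrays, and at 2.11 and 1.34 on the EtOH arrays. The SAHA arrays overlapped with the untreated arrays, and EtOH replicate 1 was the highest of all. The log2 fold change was -0.42 (SE 0.22, limma adjusted p = 0.40). SREBF1, which encodes the SREBPs of fatty acid synthesis, was at 1.57, 1.65 and 2.14 with SAHA, at 1.87, 1.89 and 1.48 untreated and at 1.86 and 1.68 with EtOH, a log2 fold change of 0.030 (SE 0.15). SAHA replicates 1 and 2 were thus within the control range and SAHA replicate 3 above it. SCAP was at 1.99, 2.28 and 2.48 with SAHA, at 2.44, 2.47 and 2.38 untreated and at 2.70 and 2.26 with EtOH (log2 fold change -0.20, SE 0.13, adjusted p = 0.51). INSIG1, itself a sensitive SREBP target, was at 1.60, 1.67 and 1.0 with SAHA, at 1.35, 1.03 and 1.55 untreated and at 1.09 and 1.49 with EtOH. Its SAHA arrays lay on both sides of the control range, with 2 above it and replicate 3 below, and the log2 fold change was 0.12 (SE 0.17, adjusted p = 0.79). INSIG2 was at 0.14, 0.45 and -0.0037 with SAHA, at 0.29, -0.069 and 0.65 untreated and at 0.13 and -0.078 with EtOH. The control range enclosed its SAHA arrays, and the log2 fold change was 0.010 (SE 0.17). STARD4, the gene of a soluble sterol carrier, had a log2 fold change of -0.079 (SE 0.12).

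**Figure D2:**
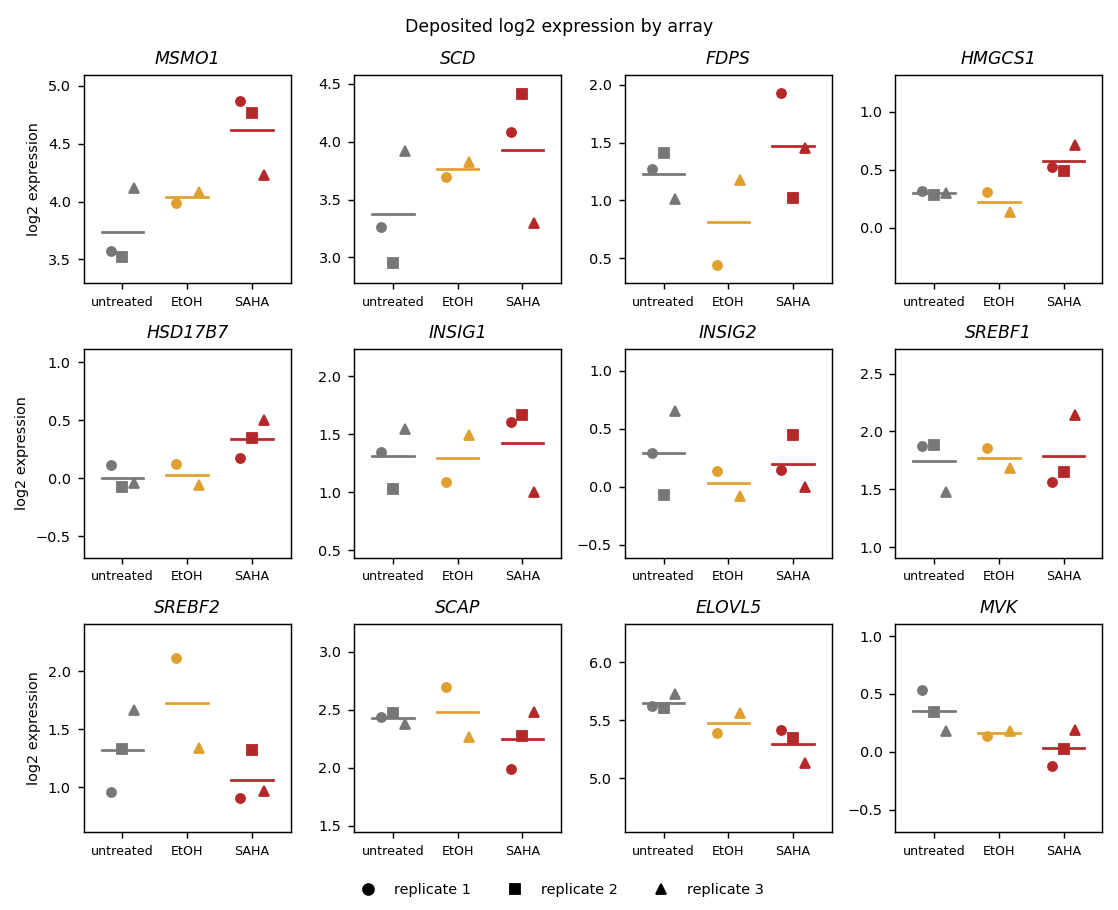
Deposited log2 expression of 12 sterol synthesis and SREBP pathway genes on each of the 8 arrays, with the same height of axis in every panel. Points are arrays, colored by group and shaped by replicate number, and bars are group means; the SAHA points of MSMO1, HMGCS1 and HSD17B7 lie above all control points, whereas those of INSIG1, SCD and SREBF1 are spread by replicate number.

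The promoters of SREBF2 and INSIG1 are shown because they were the 2 genes of the set with an exact match to an SREBP motif in this window, and neither was called. Capitals mark the motif matches, on either strand.
SREBF2, chr22:41832855-41833104, plus strand: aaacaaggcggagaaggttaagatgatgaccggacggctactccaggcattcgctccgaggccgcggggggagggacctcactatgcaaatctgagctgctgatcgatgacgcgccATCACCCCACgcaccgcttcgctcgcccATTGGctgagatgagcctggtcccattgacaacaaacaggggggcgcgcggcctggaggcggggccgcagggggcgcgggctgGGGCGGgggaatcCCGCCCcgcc
INSIG1, chr7:155297628-155297877, plus strand: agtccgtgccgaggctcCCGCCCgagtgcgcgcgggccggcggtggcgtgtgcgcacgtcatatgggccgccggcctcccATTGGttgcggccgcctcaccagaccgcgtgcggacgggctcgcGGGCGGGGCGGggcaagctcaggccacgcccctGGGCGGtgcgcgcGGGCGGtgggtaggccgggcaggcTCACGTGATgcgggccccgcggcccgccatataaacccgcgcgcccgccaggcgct
SREBF2 holds the sterol regulatory element from base -134 to base -125 before the start, a motif found in 0.0342% of all promoters. It also holds 1 CCAAT and 2 GGGCGG boxes. INSIG1 holds the E-box form ATCACGTGA, read on the minus strand, from base -56 to base -48; it is found in 0.225% of all promoters. Farther from the start than this match lie 1 CCAAT and 5 GGGCGG boxes. In the other promoters of the set these 3 motifs were absent from this window, which says nothing about sites elsewhere.

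Genes of fatty acid synthesis lay mostly above 0, 5 of 7, with a median log2 fold change of 0.27, and 0 were called. ACLY, which encodes the ATP citrate lyase that supplies acetyl-CoA to both pathways, was at 5.21, 5.09 and 5.23 with SAHA. The control arrays lay between 4.80 and 4.99, below all SAHA arrays. Its log2 fold change of 0.27 was small and even (SE 0.090, limma adjusted p = 0.19). ELOVL6, an elongase gene of saturated fatty acids, was at 2.65, 2.88 and 2.82 against 2.16 to 2.80 in the controls (log2 fold change 0.38, SE 0.16, adjusted p = 0.30). FASN, the fatty acid synthase gene, was at 2.05, 1.74 and 1.99 against 1.03 to 2.07 (log2 fold change 0.37, SE 0.19, adjusted p = 0.40). Both overlapped with the controls. SCD, which encodes the desaturase that makes oleate, had the widest interval of the set. It was at 4.08, 4.41 and 3.30 with SAHA, at 3.26, 2.95 and 3.92 in untreated cells and at 3.70 and 3.82 with EtOH. The estimate of 0.40 (SE 0.27, 95% interval -0.20 to 1.0, adjusted p = 0.52) hid SAHA arrays on both sides of the controls of their own replicate number. FADS2, the delta-6 desaturase gene, had a log2 fold change of 0.18 (SE 0.16) and ACACA, the gene of acetyl-CoA carboxylase, one of -0.053. ELOVL5, which encodes an elongase of polyunsaturated fatty acids, was at 5.41, 5.35 and 5.13 with SAHA, at 5.62, 5.60 and 5.73 untreated and at 5.39 and 5.57 with EtOH. This is the 1 fatty acid gene that leaned lower at an unadjusted p under 0.05 (log2 fold change -0.28, SE 0.11, unadjusted p = 0.022, adjusted p = 0.24), and its groups overlapped by 1 SAHA and 1 EtOH array.

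In all, the SAHA arrays lay above every control array in 4 of the 30 genes, HMGCS1, MSMO1, HSD17B7 and ACLY, where 4.21% of all genes did so. They lay below every control array in 1, PMVK, where 6.25% of all genes did so, and in 0 with quantile normalization or with each array centred on its median. The 5 genes are named after their values were seen.

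The same replicate numbers recur in every group, with labels that carry 6, 10 and 16 after a p for replicates 1, 2 and 3. The deposited values have equal means over the arrays of each number in every gene, which leaves differences within a number as they were. Within a number, SAHA was compared with the mean of its own controls, which are the EtOH and untreated arrays for replicates 1 and 3 and the untreated array for replicate 2. MSMO1 was higher by 1.09 in replicate 1 and 1.24 in replicate 2 but by 0.13 in replicate 3 on the log2 scale. SCD differed by 0.60, 1.46 and -0.57, and INSIG1 by 0.38, 0.64 and -0.52. MSMO1, SCD and INSIG1 were thus higher with SAHA in replicates 1 and 2, and SCD and INSIG1 were lower with SAHA in replicate 3. FADS2 differed by 0.64, 0.22 and -0.30, and CYP51A1 by 0.18, 0.28 and -0.31. SREBF1 ran the other way, with differences of -0.30, -0.24 and 0.56, as did SCAP with -0.58, -0.19 and 0.17. Other enzyme genes did not share the drop in replicate 3. HMGCS1 differed by 0.21, 0.21 and 0.50 and HSD17B7 by 0.056, 0.42 and 0.55, both highest in replicate 3. FDPS differed by 1.07, -0.39 and 0.35, lowest in replicate 2.

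The difference was lowest in replicate 3 for 17 of the 30 genes, in replicate 1 for 8 and in replicate 2 for 5; over all genes it was lowest in replicate 3 for 29.0%. The median difference over the 30 genes was 0.071, 0.18 and -0.10 in replicates 1, 2 and 3, and over all genes -0.059, -0.024 and -0.019. Of the 30 genes, 7 were higher within each of the 3 numbers (10.7% of all genes were) and 5 were lower (17.8% of all genes were). Without SAHA replicate 3, the other 2 SAHA arrays lay above every control array in 9 of the 30 genes, the same 4 and ACAT2, SC5D, DHCR7, INSIG1 and SCD, where 6.24% of all genes did so. They lay below every control array in 3, MVK, PMVK and MVD, where 10.5% of all genes did so. Even then 0 of the 30 genes were called in limma. The other arrays were not centred again, so the replicate 3 controls still depended on SAHA replicate 3. The part of SAHA replicate 3 in these spreads was looked at after the values were seen, and its cause was not tested.

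**Figure D3:**
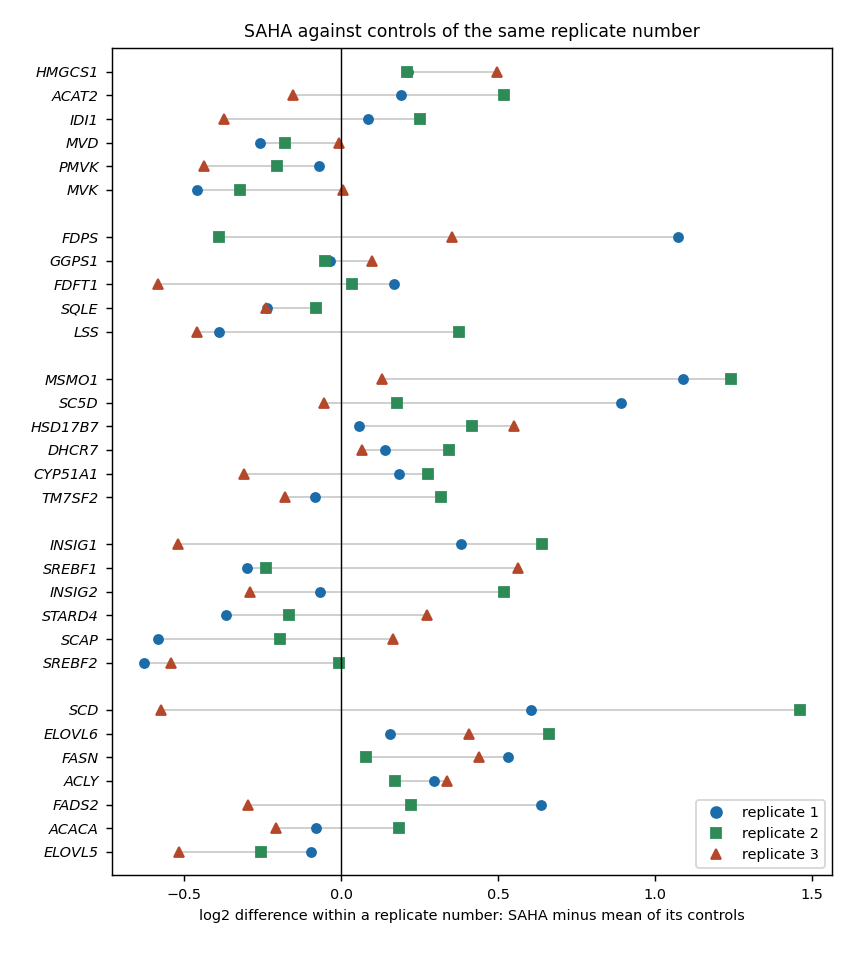
Log2 difference between the SAHA array and the mean of the control arrays with the same replicate number, for 30 genes. Each symbol is 1 replicate number; the replicate 3 symbols of SCD, INSIG1 and FDFT1 lie below -0.50, whereas the 3 symbols of ACLY, FASN, ELOVL6, HMGCS1, HSD17B7, DHCR7 and MSMO1 lie above 0.

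Each group was also compared separately in a fit with 3 groups, where the contrasts share arrays. Against untreated cells, 0 of the 30 genes were called with SAHA (0.789% of all genes were; 7 of the 30 and 16.5% of all genes had an unadjusted p under 0.05), and against EtOH 0 were called (0.103% of all genes; 8 of the 30 and 12.9% of all genes had an unadjusted p under 0.05). With the replicate number as a block, 1 of the 30 genes had an unadjusted p under 0.05 against untreated cells (8.08% of all genes) and 5 against EtOH (6.63% of all genes), and 0 were called. MSMO1 had a log2 difference of 0.89 from untreated cells (limma adjusted p = 0.079, with the block 0.27) and of 0.58 from EtOH (adjusted p = 0.33). SREBF2 differed by -0.25 from untreated cells and by -0.66 from EtOH, and FDPS by 0.24 and 0.65, so their estimates depended on which control was used.

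The vehicle itself, EtOH against untreated cells, gave 0 calls among the 30 genes and 0 among all genes in limma, which is 0% (1804 genes, or 9.75%, had an unadjusted p under 0.05). Of the 30 genes, 3 had an unadjusted p under 0.05, LSS, FASN and GGPS1, and 2 did with the block, where 4.13% of all genes did. LSS was at 3.22 on both EtOH arrays and at 2.70, 2.64 and 2.75 on the untreated arrays, without overlap, a log2 difference of 0.52 (SE 0.15, unadjusted p = 0.0069, limma adjusted p = 0.42). With SAHA, LSS was at 2.57, 3.02 and 2.53, a log2 difference of 0.0082 from untreated cells. FASN was at 1.53 and 1.03 with EtOH and at 1.51, 1.66 and 2.07 untreated, a log2 difference of -0.46 (SE 0.20, adjusted p = 0.51). In replicate 1 FASN was at 1.53 with EtOH and 1.51 untreated, and in replicate 3 at 1.03 and 2.07. GGPS1 was at 0.23 and 0.28 with EtOH and between 0.48 and 0.71 untreated, with SAHA arrays at 0.43, 0.43 and 0.52, and EtOH minus untreated was a log2 difference of -0.33 (SE 0.11, adjusted p = 0.44). With 2 EtOH arrays, the spread of that group is largely borrowed from the other groups. The EtOH arrays are of replicates 1 and 3, and untreated replicate 2 was centred with SAHA replicate 2 alone. Differences between EtOH and untreated cells without the block therefore hold part of the SAHA difference in replicate 2.

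**Figure D4:**
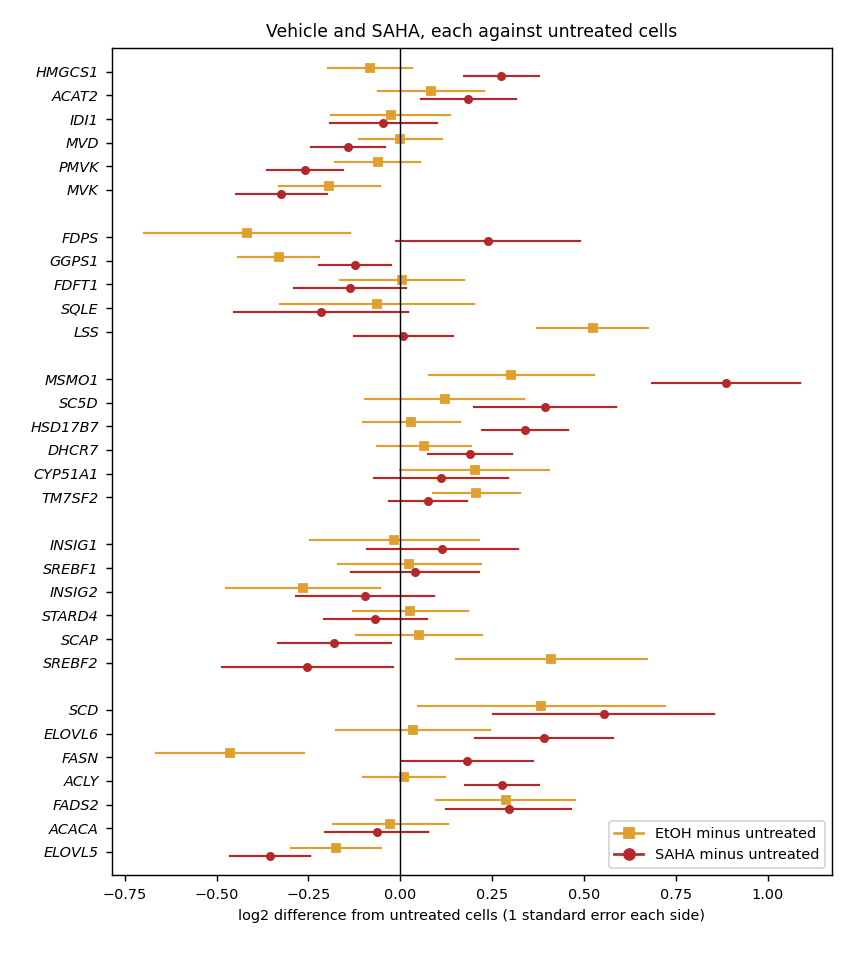
Log2 difference of EtOH-treated and of SAHA-treated ADSCs from untreated ADSCs for 30 genes, with lines of 1 standard error to each side from limma. Both differences use the same 3 untreated arrays and are not paired by replicate number, and EtOH has no array of replicate 2. EtOH lies at 0.52 and SAHA at 0.0082 for LSS, and EtOH at 0.30 and SAHA at 0.89 for MSMO1.

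Other genes of sterol and lipid metabolism were counted from 4 lists with 50 measured genes. In the comparison of SAHA with the combined controls, limma called 0 of the 50, against 0.735% of all genes. At an unadjusted p under 0.05 there were 11 of the 50, where 15.4% of all genes passed. The unpaired t-test called 0 of the 50 and 0.0919% of all genes after adjustment. Of 12 genes of sterol uptake, transport, storage and export, TMEM97, which encodes a sterol-responsive protein that binds NPC1, had the largest estimate. It was at 3.16, 2.06 and 2.26 with SAHA and between 0.80 and 1.74 in the controls, without overlap. Its log2 fold change of 1.08 was larger than that of MSMO1 and its error was wide (SE 0.26, adjusted p = 0.087, over 18 alternatives 0.059 to 0.27). SOAT1, which encodes the enzyme that esterifies cholesterol for storage, was at 3.44, 3.40 and 3.37 against 3.53 to 3.85, also without overlap (log2 fold change -0.31, SE 0.10, adjusted p = 0.19). Of 8 measured genes of SREBP cleavage and sterol sensing, the site-1 protease gene MBTPS1 was at 0.30 and the liver X receptor gene NR1H2 at -0.16 on the log2 fold change scale.

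Of 19 measured genes of other fatty acid synthesis and elongation, 5 were above 0 and 14 below. FADS3, a relative of the desaturase FADS2, was at 2.67, 2.38 and 2.88 with SAHA and between 2.85 and 3.93 in the controls. It had a log2 fold change of -0.81 (SE 0.21, limma adjusted p = 0.11), and it passed with array weights at 0.045 and without untreated replicate 3 at 0.039 (18 alternatives, 0.039 to 0.28). HACD3 and HACD2, genes of the dehydratase step of elongation, had log2 fold changes of 0.47 (adjusted p = 0.29) and -0.44 (adjusted p = 0.055); HACD2 was named after its values were seen. Of 11 measured genes of the isoprenoid branch beyond farnesyl diphosphate, COQ2, which encodes the prenyltransferase of ubiquinone synthesis, was at 0.097, 0.59 and 0.38 with SAHA and between 0.77 and 1.63 in the controls (log2 fold change -0.76, SE 0.19, adjusted p = 0.095). It passed with equal weight of the EtOH and untreated groups, at 0.044 (18 alternatives, 0.044 to 0.32). PGGT1B, a protein prenyltransferase gene, had a log2 fold change of -0.35 (adjusted p = 0.27).

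Of 15 measured genes of mitosis, 2 fell and 0 rose, where 0.297% of all genes fell and 0.438% rose. In 9 of the 15, all lower, the unadjusted p was under 0.05, where 15.4% of all genes passed in either direction. All 15 had a negative log2 fold change, as did 57.6% of all genes, and the median was -0.48 against -0.034 over all genes. The mean of the 15 genes lay between 1.68 and 1.78 on the SAHA arrays and between 2.03 and 2.26 on the control arrays. CENPF, a kinetochore gene, was at 1.35, 1.55 and 1.65 with SAHA and between 2.09 and 2.55 in the controls. TOP2A, the topoisomerase gene, was at 3.27, 3.15 and 3.32 against 3.76 to 4.28, and neither gene overlapped. CENPF had a log2 fold change of -0.77 (limma adjusted p = 0.024) and TOP2A one of -0.74 (adjusted p = 0.019). Both calls were lost with the replicate block, at 0.089 and 0.083, and without any single SAHA array, at 0.063 to 0.12 for CENPF and 0.071 to 0.088 for TOP2A; over 18 alternatives the adjusted p ran from 0.010 to 0.13 and from 0.0096 to 0.13. Both were also lost with EtOH arrays only as control, and CENPF with untreated arrays only, at 0.060, and without untreated replicate 2, at 0.069. The unpaired t-test, which is not among the 18 alternatives, called neither gene and 0.0919% of all genes after the same adjustment. In bulk RNA, fewer cells that express a gene and less RNA per cell cannot be told apart, and the part of cell division in the values of the sterol genes was not tested.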

How the data were processed

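The authors processed Human Clariom S arrays with the oligo package, left out 1 EtOH array for low intensity, normalized by RMA and deposited log2 values, 1 for each of 18508 genes and 8 arrays. Versions of these tools and a genome build are not given in the sources used here. The means over the arrays of replicates 1, 2 and 3 were equal in every gene, within 1e-10, so differences between the replicate numbers had been removed before deposit. Residual degrees of freedom number 6 without the numbers in the fit and 4 with them as a block.

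The deposited values were analysed with limma 3.58.1 in R 4.3.3, with no further normalization or filter. SAHA was compared with the combined controls as in the study's methods, and a fit with 3 groups gave the separate contrasts. Adjusted p-values are Benjamini-Hochberg values over 18508 genes. Calls needed a fold of 1.5 and an adjusted p under 0.05. The fits were tested on simulated data. The number of arrays limits the precision. The p-values measure the spread between cultures of 1 line that was left after differences between the replicate numbers were removed. Without the block the fit counts 6 residual degrees of freedom, where that removal leaves 4. Its p-values can therefore be too small and its intervals too narrow.

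The members and lists were chosen with earlier results of these data known. Values on every array are given for called genes, the 3 largest rises and falls, SREBF1, SREBF2, SCAP, INSIG1 and INSIG2, and SAHA values with the control range or arrays for genes picked after their values were seen (HMGCS1, PMVK, HSD17B7, ACLY, ELOVL6, FASN, DHCR7, SQLE, LSS and GGPS1). From each list of other pathway genes and of mitosis, called genes or else the 2 largest changes are named. Alternatives were quantile normalization, median centring, array weights, an intensity trend, robust variances, a filter on dim genes that kept 12338, the replicate block, other control weights, each array left out, the unpaired t-test and no fold threshold. Ranges over 18 alternatives leave out the unpaired t-test. Marker lists of endothelial and blood cells, 4 genes each, held 0 called genes. In CD34, a blood cell marker named after its values were seen, the SAHA arrays lay above every control array. Its log2 fold change was 0.29 (limma, unadjusted p = 0.0097, adjusted p = 0.17). In CD14, of the same list, the SAHA arrays lay below every control array, at -0.19 (adjusted p = 0.41). Over all genes, 4.21% lay above and 6.25% below in this way. Promoters are from RefSeq (GRCh38.p14). The proteomics, qPCR and protein assays were not analysed here.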

Additional observations from a re-analysis of the deposited data

Results flagged for a closer look

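Among the 5 control arrays, 1 array stood apart by Dixon's test at the 95% level in 2 of the 30 genes. Chance alone marks about 1 in 20 genes where the 5 values are independent. Here the control arrays of each replicate number were centred together with its SAHA array, so that rate cannot be relied on. HMGCS1 was at 0.13 in EtOH replicate 3, against a mean of 0.30 on the other control arrays, the nearest of which was at 0.28. SC5D was at -0.22 in untreated replicate 1, against a mean of 0.27 and a nearest value of 0.22. In each gene the SAHA array of the same replicate number was the highest, at 0.71 for HMGCS1 and 0.90 for SC5D.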

How the results depend on the processing

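The count of 0 called genes among the 30 held under every alternative run for higher and for lower genes, with the exception of array weights, where 1 gene, MSMO1, was higher. Under the replicate block, 0 higher and 0 lower genes were called, the smallest adjusted p was 0.22, and the 95% interval lay inside a 1.5-fold change for 16 genes. The contrasts with EtOH and untreated cells also gave 0 calls under the block, the trend, quantile normalization and median centring. Whether same-numbered arrays are paired cannot be checked by correlation, since the numbers were centred before deposit; their block changed no call among the 30 genes. Of 569 values of single genes under alternatives, 532 kept their direction and call, and 36 changed sign, in 11 genes whose main estimates ran from -0.20 for LSS to 0.12 for INSIG1. The intensity trend, the robust variances and the unpaired t-test leave every log2 fold change as it was. The replicate block multiplies all of them by the same factor. No sign could change under these settings, although calls could. IDI1 was at 0.026 with quantile normalization, 0.0069 with median centring and 0.019 with array weights. TM7SF2 was at 0.052, 0.034 and 0.063 with these, and at 0.075 with untreated arrays only as control. With that control GGPS1 was at -0.12, LSS at 0.0082 and INSIG2 at -0.095, and with EtOH arrays only CYP51A1 was at -0.091. SREBF1 was at -0.010 with array weights and ACACA at 0.0071 with quantile normalization. With 1 array left out, the log2 fold change ran from -0.11 to 0.078 for IDI1, from -0.24 to 0.013 for FDFT1, from -0.048 to 0.073 for GGPS1, from -0.067 to 0.14 for CYP51A1, from -0.090 to 0.049 for TM7SF2, from -0.00082 to 0.33 for INSIG1, from -0.12 to 0.13 for INSIG2, from -0.15 to 0.14 for SREBF1, from -0.19 to 0.020 for STARD4 and from -0.12 to 0.014 for ACACA. The count of genes above every control array was 3 to 4 with other scalings and 4 to 9 with 1 array left out, the highest without SAHA replicate 3; below every control array it was 0 with quantile normalization and with median centring, and 1 to 3 with 1 array left out. Array weights also raised the number of called genes in the whole table, to 233 from 136.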
